A study of Mus musculus with 8 samples.

Results

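Glutamine uptake and ammonia formation were followed in tubular epithelial cells through 7 genes: the glutamine carriers Slc38a3, Slc38a2 and Slc1a5, the enzymes Glud1 and Glul, and the ammonia channels Rhbg and Rhcg. Glutaminase, which turns glutamine into glutamate, was not among these or the other pathway genes followed. The genes were listed by their role, but with earlier results of these data known. All 7 were found once among the 53700 genes of the expression table, and all 7 were among the 13566 genes tested, those that reached 1 FPKM in 2 or more libraries. FPKM is fragments per kilobase of transcript, scaled by the depth of the library, so levels of different genes are given per length.

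Kidneys came from Pkd1KO mice, in which floxed Pkd1 was deleted in the whole body by a tamoxifen-inducible Cre (CAGG-CreER). Mice were given 3 doses of tamoxifen at 5 to 6 weeks of age, and were put on diet 2 weeks later. For 1 week they ate 2.8 g per day of food with 6% protein (LP, low), 18% (NP, normal) or 60% (HP, high). Flow-sorted epithelial cells gave 2 LP, 3 NP and 3 HP libraries, each from a pool of 2 to 3 mice, and no mice with intact Pkd1 were sequenced. The libraries are named by their labels: LP F2 and M, NP F2, KO7 and M, and HP F1, F2 and M. The diets were made to equal energy content. They differed in carbohydrate, calcium salts, added methionine and cellulose as well as protein, so these cannot be told apart.

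Depth, estimated from the steps between low FPKM values, was 26600000 to 34700000 fragments per library. The proximal tubule markers summed to 5738 to 7458 FPKM in every library, and all 11 were measured. Markers of other cells were also present: macrophage markers summed to 202 to 248 FPKM with HP, 90.2 to 155 with NP and 188 to 206 with LP, although macrophages were stained for the sort. Pkd1 was at 1.38 to 4.11 FPKM, and the values do not show which part of the gene the fragments came from. The library labelled LP M held both Xist (16.25 FPKM) and Ddx3y (9.74 FPKM), transcripts of the inactive X and of the Y chromosome, whereas every other library was high in 1 of them. NP KO7 was at 0.78 FPKM of Xist and 7.99 FPKM of Ddx3y, like the M libraries of NP and HP. HP thus held 2 F libraries and 1 M, against 1 F library and 2 with the M pattern on NP, so the sexes were not balanced between the diets. Without LP M none of the 7 genes was called in any comparison, and the same 2 genes, Slc38a2 and Glul, had all HP libraries apart from the rest.

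Proximal tubule cells take glutamine from the blood through SNAT3, the product of Slc38a3, on their basolateral membrane. Inside the mitochondria glutamine is deaminated to glutamate, and glutamate dehydrogenase (Glud1) frees a further ammonium and leaves 2-oxoglutarate, which can be made into glucose. Glutamine synthetase (Glul) runs the other way and binds ammonia into glutamine. In the distal nephron the Rh glycoproteins Rhbg, on the basolateral side, and Rhcg, on the apical and basolateral side, let ammonia through to the urine. The kidney is known to raise ammonia formation in acidosis, and protein in food is a source of acid.

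Promoter sequences are shown for Glud1 and Glul because these opposing enzymes had opposite signs on HP. Each runs 5′ to 3′ over the 250 bases before the gene's start in RefSeq (GRCm38.p6), at chr14:34310477-34310726 on the plus strand for Glud1 and chr1:153899679-153899928 on the plus strand for Glul. Capitals mark CCAAT and GGGCGG, searched on both strands, so that ATTGG and CCGCCC are in capitals too.
Glud1: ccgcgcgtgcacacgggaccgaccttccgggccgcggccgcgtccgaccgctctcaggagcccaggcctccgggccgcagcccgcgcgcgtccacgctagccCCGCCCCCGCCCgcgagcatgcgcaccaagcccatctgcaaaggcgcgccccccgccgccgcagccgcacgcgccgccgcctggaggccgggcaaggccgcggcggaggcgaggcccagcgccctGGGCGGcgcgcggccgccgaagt
Glul: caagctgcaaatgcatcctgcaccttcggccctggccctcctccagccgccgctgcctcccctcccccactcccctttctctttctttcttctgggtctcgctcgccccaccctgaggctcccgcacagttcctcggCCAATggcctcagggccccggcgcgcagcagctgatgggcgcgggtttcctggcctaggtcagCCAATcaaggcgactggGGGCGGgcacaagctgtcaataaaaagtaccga
The Glud1 stretch held 82.0% G and C, 3 matches to GGGCGG and 0 to CCAAT. The Glul stretch held 64.8% G and C, 1 match to GGGCGG and 2 to CCAAT. Among all 32851 promoters of this length 33.8% held CCAAT and 32.7% held GGGCGG, and a match is a description of the letters only. RefSeq promoters matched 4 of the 7 genes.

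Of the 7 genes, the study followed Slc38a3 by RT-PCR. Its primer pair is shown because it marks which transcripts that assay reads.
forward primer: ctcttcggctacctcaccttct
reverse primer: aagtgtgaccgctatcagcacg
Both primers matched 8 of the 14 Slc38a3 transcripts of GENCODE M21 and 4 of its 7 protein-coding ones, with a product of 126 bases in each of the 4. FPKM counts all transcripts of the gene together.

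The carriers come first in the pathway. Slc38a3 (ENSMUSG00000010064.16, chromosome 9) was at 89.02, 79.42 and 26.91 FPKM in HP F1, F2 and M. It was at 48.89, 8.37 and 14.87 FPKM in NP F2, KO7 and M, and at 15.40 and 12.96 FPKM in LP F2 and M. HP lay above both LP libraries, but NP F2 was above HP M, so HP and NP overlapped. Means were 65.1 ± 33.4 FPKM with HP, 24.0 ± 21.8 with NP and 14.2 ± 1.73 with LP (SD, n = 3, 3 and 2). This is 2.71 times the NP mean and 4.59 times the LP mean, but 5.60 times the NP mean without NP F2. That leaves out the only F library on NP, so HP F1, F2 and M are set against the M pattern alone. Within a label, HP was at 1.62 (F2) and 1.81 (M) times the NP level. Slc38a3 was the only one of the 7 genes with an HP mean at least 2-fold from both other diets, a rule that 0.715% of the tested genes passed upward and 1.04% downward. Without HP M or without NP F2, Glud1 passed it as well.

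On the log2(FPKM + 1) scale Slc38a3 differed by 1.59 between HP and NP (SE 0.60, limma adjusted p = 0.498) and by 1.96 between HP and LP (SE 0.67, adjusted p = 0.320). Neither passed the threshold of 0.05 after adjustment over all genes, and the study picked Slc38a3 from these libraries because it was high on HP, so its direction is not independent evidence. With library label as a block (F2 or M), which leaves out HP F1 and NP KO7, the difference between HP and NP was 0.75. With the sex letter in the model, which leaves out NP KO7, it was 0.86 between HP and NP (adjusted p = 0.243), and 1.75 between HP and LP, where Slc38a3 passed the threshold (adjusted p = 0.0326). That model counts LP M as M, although LP M held both Xist and Ddx3y. Across the 8 libraries Slc38a3 spanned 10.6-fold, the widest span of the 7 genes.

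Slc38a2 (ENSMUSG00000022462.8, chromosome 15) encodes SNAT2, a widely expressed sodium-coupled carrier of small neutral amino acids. It was at 14.56, 12.00 and 11.49 FPKM in HP F1, F2 and M, against 8.21, 8.26 and 11.06 FPKM in NP F2, KO7 and M and 8.25 and 9.39 FPKM in LP F2 and M. Every HP library was above all 5 others, the closest being HP M and NP M. This holds for FPKM as deposited; with libraries rescaled to the same sum, HP no longer lay apart. Slc38a2 averaged 12.7 ± 1.65 FPKM with HP, 9.18 ± 1.63 with NP and 8.82 ± 0.806 with LP (SD, n = 3, 3 and 2). The difference was 0.43 between HP and NP (SE 0.16, limma adjusted p = 0.491) and 0.47 between HP and LP (SE 0.18, adjusted p = 0.343) on the log2(FPKM + 1) scale.

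Slc1a5 (ENSMUSG00000001918.18, chromosome 7) encodes ASCT2, an exchanger of neutral amino acids that carries glutamine. It was at 20.01, 13.32 and 8.82 FPKM in HP F1, F2 and M, against 11.84, 11.13 and 10.71 FPKM in NP F2, KO7 and M and 6.74 and 6.79 FPKM in LP F2 and M. HP M was below all 3 NP libraries, while both LP libraries were below every other. The difference between HP and LP was 0.89 (SE 0.27, limma adjusted p = 0.288), and that between LP and NP was -0.65 (SE 0.27, adjusted p = 0.454), both on the log2(FPKM + 1) scale. Between HP and NP it was 0.23 (95% interval -0.31 to 0.78, adjusted p = 0.834), and its sign turned with the label block, to -0.05.

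Slc38a3 made up 72.0, 75.8 and 57.0% of the summed FPKM of the 3 carriers in HP F1, F2 and M. It made up 70.9, 30.2 and 40.6% in NP F2, KO7 and M, and 50.7 and 44.5% in LP F2 and M. The HP and NP shares overlapped through NP F2.

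**Figure D1:**
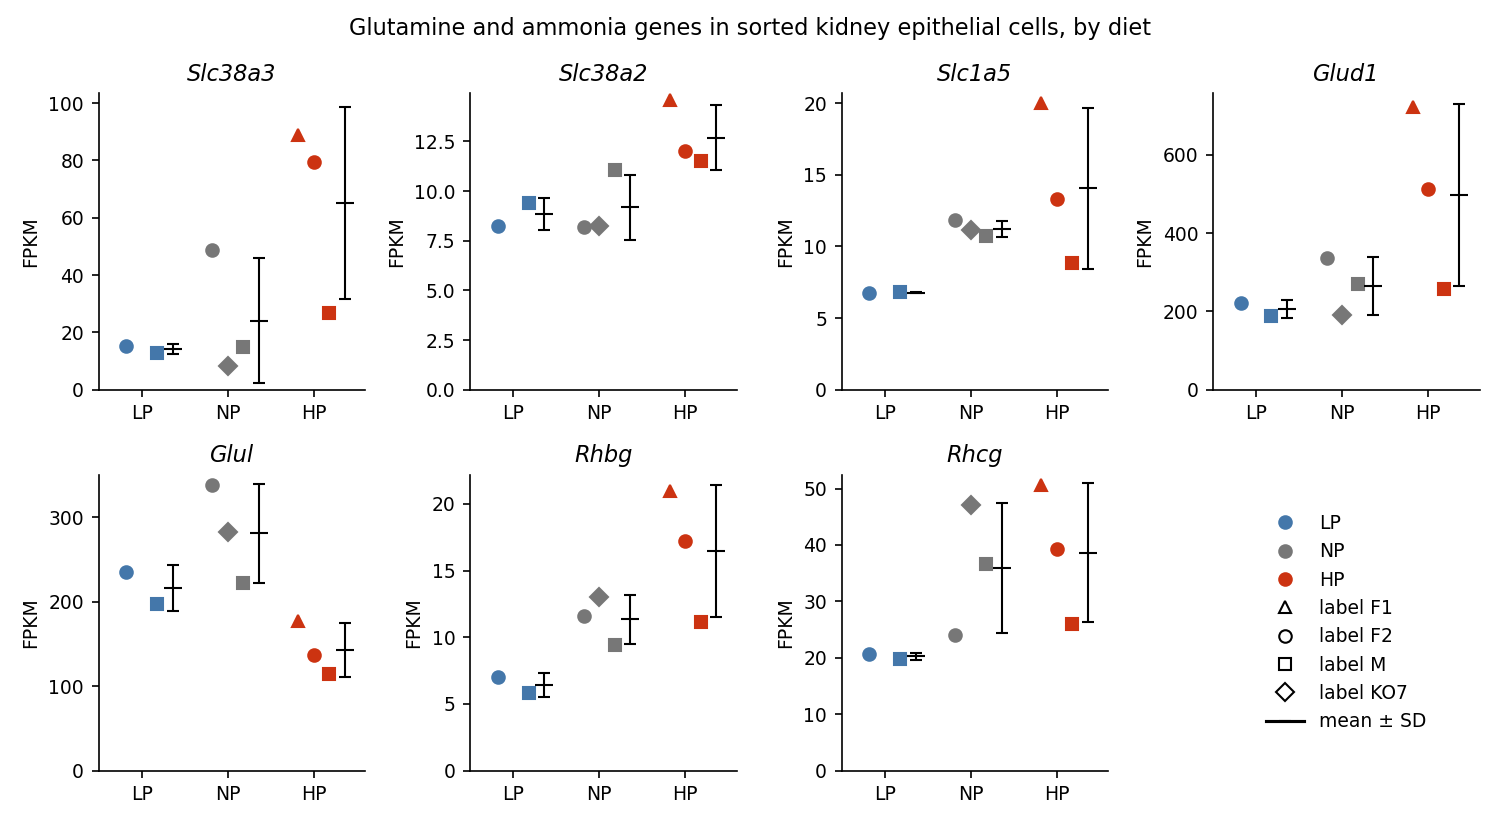
FPKM of each gene in every library (points, shape by label) on LP, NP and HP, with the mean ± SD of each diet as a bar at the right of its points (n = 2, 3 and 3). Slc38a2 is above and Glul below all other libraries on HP, whereas HP M lies among the NP libraries for Slc38a3, Glud1, Rhbg and Rhcg.

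The 2 enzymes had the highest levels of the 7 genes. Averaged over the 8 libraries, Glud1 was at 337 FPKM, above 97.7% of the tested genes, and Glul was at 213 FPKM, above 96.7%. The next highest, Slc38a3, averaged 37.0 FPKM.

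Glud1 (ENSMUSG00000021794.17, chromosome 14) was at 720.84, 512.11 and 257.14 FPKM in HP F1, F2 and M, against 337.24, 189.58 and 268.61 FPKM in NP F2, KO7 and M and 221.59 and 189.25 FPKM in LP F2 and M. HP F1 and F2 were above every other library, while HP M was within the NP range. Means were 497 ± 232 FPKM with HP, 265 ± 73.9 with NP and 205 ± 22.9 with LP (SD, n = 3, 3 and 2). The difference was 0.82 between HP and NP (SE 0.35, limma adjusted p = 0.551) and 1.15 between HP and LP (SE 0.39, adjusted p = 0.319) on the log2(FPKM + 1) scale. With the label block the first was 0.27. A processed copy, Glud-ps, was at 0.121 to 0.424% of the Glud1 level in each library.

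Glul (ENSMUSG00000026473.17, chromosome 1) was at 177.68, 137.08 and 114.54 FPKM in HP F1, F2 and M, against 338.94, 282.28 and 222.31 FPKM in NP F2, KO7 and M and 235.90 and 197.41 FPKM in LP F2 and M. Every HP library was below all 5 others. Glul averaged 143 ± 32.0 FPKM with HP, 281 ± 58.3 with NP and 217 ± 27.2 with LP (SD, n = 3, 3 and 2). On the log2(FPKM + 1) scale the difference was -0.97 between HP and NP (SE 0.21, limma adjusted p = 0.225) and -0.61 between HP and LP (SE 0.23, adjusted p = 0.337). Among the 7 genes Glul had the lowest adjusted p in HP against NP and against NP and LP averaged (0.251), but it did not pass the threshold. With the sex letter in the model and NP KO7 left out, Glul passed it in both (-1.03, adjusted p = 0.0255, and -0.86, adjusted p = 0.0198). The sex letter counts LP M as M, although LP M held both Xist and Ddx3y. Rescaled to the same sum, or without haemoglobin and mitochondrial genes, HP no longer lay apart.

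The ratio of Glud1 to Glul within a library does not depend on the scaling of that library. It was 4.06, 3.74 and 2.24 in HP F1, F2 and M, against 0.995, 0.672 and 1.21 in NP F2, KO7 and M and 0.939 and 0.959 in LP F2 and M. All 3 HP libraries were above all others, and LP and NP overlapped. The mean log2 ratio was 1.70 ± 0.46 with HP, -0.10 ± 0.43 with NP and -0.08 ± 0.02 with LP (SD, n = 3, 3 and 2). The pair was looked at after both genes' values were known, and the ratio is given with no test.

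**Figure D2:**
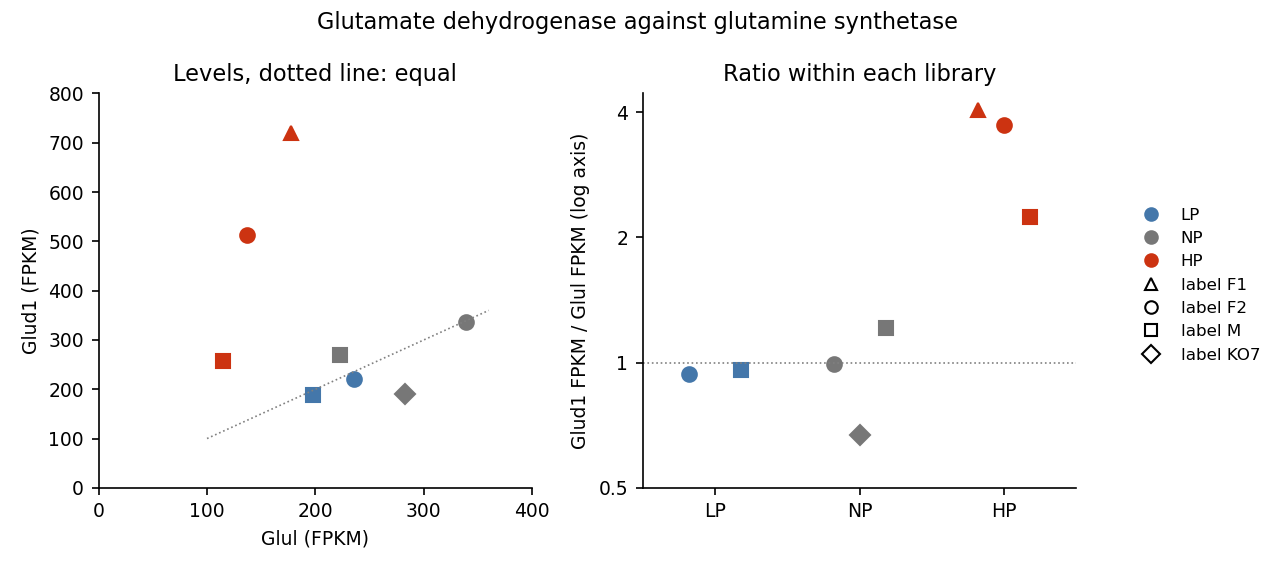
Left, Glud1 FPKM against Glul FPKM in each library, with equal levels as a dotted line; right, their ratio by diet on a log axis. The HP libraries sit at 2.24 to 4.06 and the NP and LP libraries at 0.672 to 1.21.

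The ammonia channels were at lower levels. Rhbg (ENSMUSG00000104445.2, chromosome 3) was at 20.96, 17.25 and 11.14 FPKM in HP F1, F2 and M, against 11.58, 13.03 and 9.40 FPKM in NP F2, KO7 and M and 7.05 and 5.79 FPKM in LP F2 and M. HP F1 and F2 were above every NP library, HP M was within the NP range, and LP was below all. On the log2(FPKM + 1) scale the difference was 1.20 between HP and LP (SE 0.25, limma adjusted p = 0.198), 0.47 between HP and NP (SE 0.23, adjusted p = 0.601) and -0.73 between LP and NP (SE 0.25, adjusted p = 0.416). Without HP M, Rhbg passed the threshold against LP (1.44, adjusted p = 0.0357) and against NP and LP averaged (1.07, adjusted p = 0.0496).

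Rhcg (ENSMUSG00000030549.7, chromosome 7) was at 50.57, 39.30 and 25.99 FPKM in HP F1, F2 and M, against 24.02, 47.11 and 36.71 FPKM in NP F2, KO7 and M and 20.74 and 19.76 FPKM in LP F2 and M. HP and NP covered nearly the same range, and both LP libraries were below it. The difference was 0.85 between HP and LP (SE 0.31, limma adjusted p = 0.333), 0.10 between HP and NP (95% interval -0.53 to 0.73, adjusted p = 0.948) and -0.75 between LP and NP (SE 0.31, adjusted p = 0.460) on the log2(FPKM + 1) scale. Rhcg was at 2.07 to 3.91 times the level of Rhbg in all 8 libraries.

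Both channels varied with markers of the distal nephron. The 8 intercalated cell markers summed to 69.1, 53.0 and 38.2 FPKM in HP F1, F2 and M, against 35.3, 66.9 and 45.7 FPKM in NP F2, KO7 and M and 24.9 and 21.7 FPKM in LP F2 and M. All 8 markers were above 0 in HP against LP and all 8 below 0 in LP against NP, and none was at 0 FPKM in every library. Across the 8 libraries this sum correlated with Rhcg at r = 0.98 and with Rhbg at r = 0.89, given as a description because the points share their diets and cell mixture. It was not particular to these cells: Rhcg was at r = 0.99 with the distal convoluted tubule sum, and Rhcg and Rhbg were each at r = 0.94 with the thick ascending limb sum. Per intercalated marker sum, the log2 difference between HP and LP was -0.28 for Rhcg and 0.16 for Rhbg, and that between HP and NP was -0.02 and 0.38. Per principal cell sum, Rhbg was above all other libraries on HP, by 0.49 against LP and 0.83 against NP, and Rhcg was not apart. Per thick ascending limb sum neither channel was apart on HP. There Rhbg differed by 0.03 against NP and -0.33 against LP, and Rhcg by -0.37 and -0.77. Fewer cells of a type and less RNA per cell cannot be told apart in these sorted pools.

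The proximal tubule sum was 6577, 5801 and 6083 FPKM in HP F1, F2 and M, against 6591, 6750 and 7458 FPKM in NP F2, KO7 and M and 5838 and 5738 FPKM in LP F2 and M. Per proximal tubule sum Glul stayed below and Slc38a2 above all other libraries on HP. The log2 difference of Slc38a3 was then 1.83 between HP and NP and 1.94 between HP and LP. Per thick ascending limb sum it was 1.18 and 0.37, per intercalated sum 1.53 and 0.87, and per principal cell sum 1.98 and 1.20. Slc38a3 was not apart on HP per any of these sums. The study's staining placed SNAT3 in proximal and distal tubules. Slc38a2 is not limited to the proximal tubule, and per thick ascending limb sum its difference was 0.00 between HP and NP and -1.13 between HP and LP. Slc1a5 differed between HP and LP by 0.89 per proximal tubule, -0.18 per intercalated, 0.15 per principal cell and -0.68 per thick ascending limb sum. In the same order Glud1 differed by 1.07, -0.0023, 0.33 and -0.50. Between HP and NP the values were 0.42, 0.12, 0.57 and -0.23 for Slc1a5. For Glud1 they were 0.99, 0.70, 1.15 and 0.35. Glul stayed below all others on HP per thick ascending limb sum and per intercalated sum, but not per principal cell sum. Every HP proximal tubule sum was below every NP sum. Of the 11 markers, 3 were above 0 and 8 below in HP against NP. The proximal tubule list does not separate its segments.

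Marker sums of other cells are given by diet, and no marker of any list was called in any comparison. The 7 thick ascending limb markers summed to 924 to 2088 FPKM with HP, 813 to 1772 with NP and 473 to 505 with LP. The 6 endothelial markers summed to 52.6 to 111 FPKM with HP, 41.7 to 59.7 with NP and 50.0 to 56.4 with LP, and the 5 erythroid genes to 227 to 427, 91.7 to 207 and 129 to 151 FPKM on the same diets. The 5 fibroblast and pericyte markers summed to 6.31 to 9.59 FPKM with HP, 4.04 to 6.06 with NP and 6.17 to 6.86 with LP. Over the 8 libraries Glul was at r = -0.82 with the macrophage sum and r = -0.70 with the fibroblast and pericyte sum. Slc38a2 was at r = 0.81 with the fibroblast and pericyte sum and r = 0.74 with the endothelial sum, and Glud1 at r = 0.75 with the endothelial sum. The part of these cells in the results on the 7 genes was not tested.

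**Figure D3:**
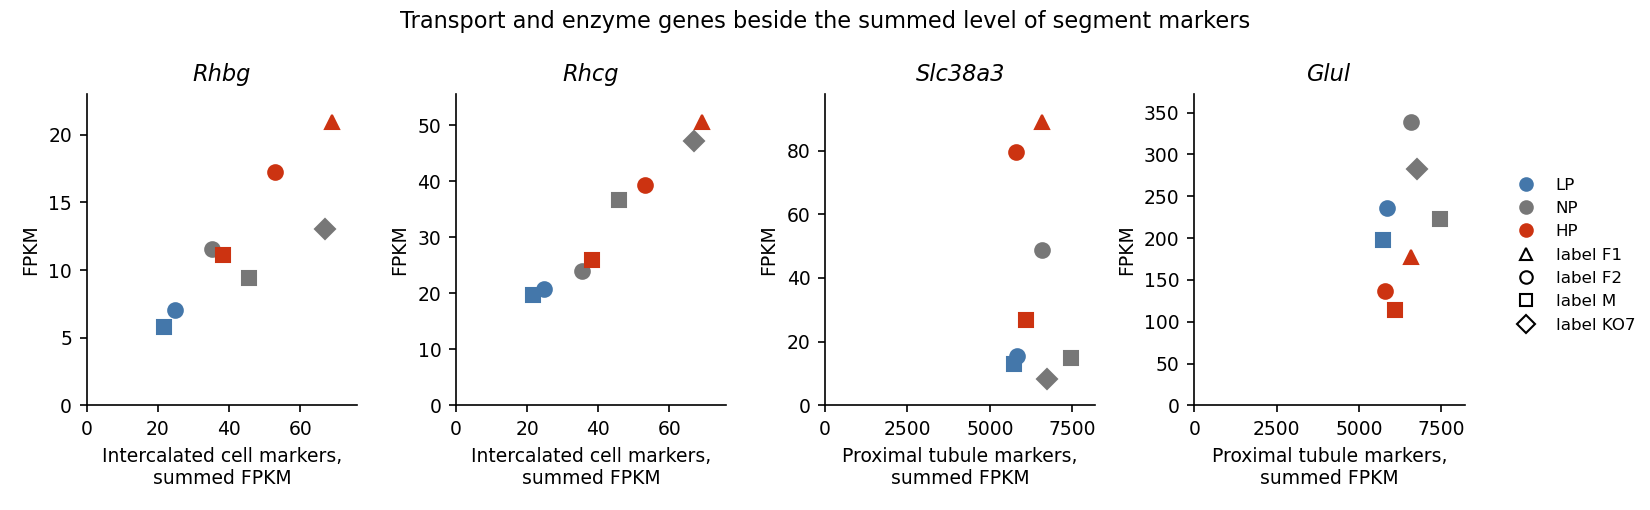
FPKM of Rhbg and Rhcg against the summed FPKM of 8 intercalated cell markers, and of Slc38a3 and Glul against that of 11 proximal tubule markers, each point a library coloured by diet. Rhcg lies close to a line through all diets (r = 0.98). Glul on HP is at 115 to 178 FPKM, at proximal tubule sums of 5801 to 6577 FPKM. These sums are 6591 to 7458 FPKM on NP, all above HP, and 5738 to 5838 FPKM on LP.

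Set against all genes, none of the 7 was called in any comparison at an adjusted p under 0.05. Few genes were: 3 in HP against NP (0.0221%), 2 in HP against LP (0.0147%), 2 in LP against NP (0.0147%) and 1 in HP against NP and LP averaged (0.00737%). With the label block these counts were 8, 0, 2 and 5, and again held none of the 7. With the sex letter in the model, and without NP KO7, they were 44, 189, 16 and 115, and held Glul in the first, Slc38a3 and Rhbg in the second and Glul and Slc38a3 in the last. The model with the sex letter counts LP M as M, although LP M held both Xist and Ddx3y. At an unadjusted limma p under 0.05, HP was higher than LP in 6 of the 7 (5.06% of all genes) and lower in Glul (7.32%). Against NP, HP was higher in Slc38a3, Slc38a2 and Glud1 (2.96%) and lower in Glul (5.92%). Against NP and LP averaged, HP was higher in all but Glul and Rhcg (4.08%) and lower in Glul (6.94%). LP was lower than NP in Slc1a5, Rhbg and Rhcg (5.82%) and higher in none of the 7 (4.57%). These comparisons share their libraries and are not independent of one another.

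The HP and LP libraries did not overlap in any of the 7 genes, with HP above in 6 (12.8% of all genes) and below in Glul (20.3%). HP and NP did not overlap in Slc38a2, where HP was above (3.66%), and in Glul, where HP was below (8.78%). Against all 5 other libraries, HP lay above in Slc38a2 (1.49%) and below in Glul (4.23%). LP lay below NP in Slc1a5, Rhbg and Rhcg (16.4%). None of the 7 was in rising order through LP, NP and HP with no overlap (0.118% of all genes).

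The median log2 difference of the 7 genes was 0.43 in HP against NP, 0.89 in HP against LP and -0.37 in LP against NP. Over all 13566 genes it was -0.05, -0.04 and -0.02 in the same comparisons. The signs were 6 of 7 above 0 in both HP comparisons, where 40.9 and 44.9% of all genes were above 0, and 0 of 7 in LP against NP, where 47.9% were.

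**Figure D4:**
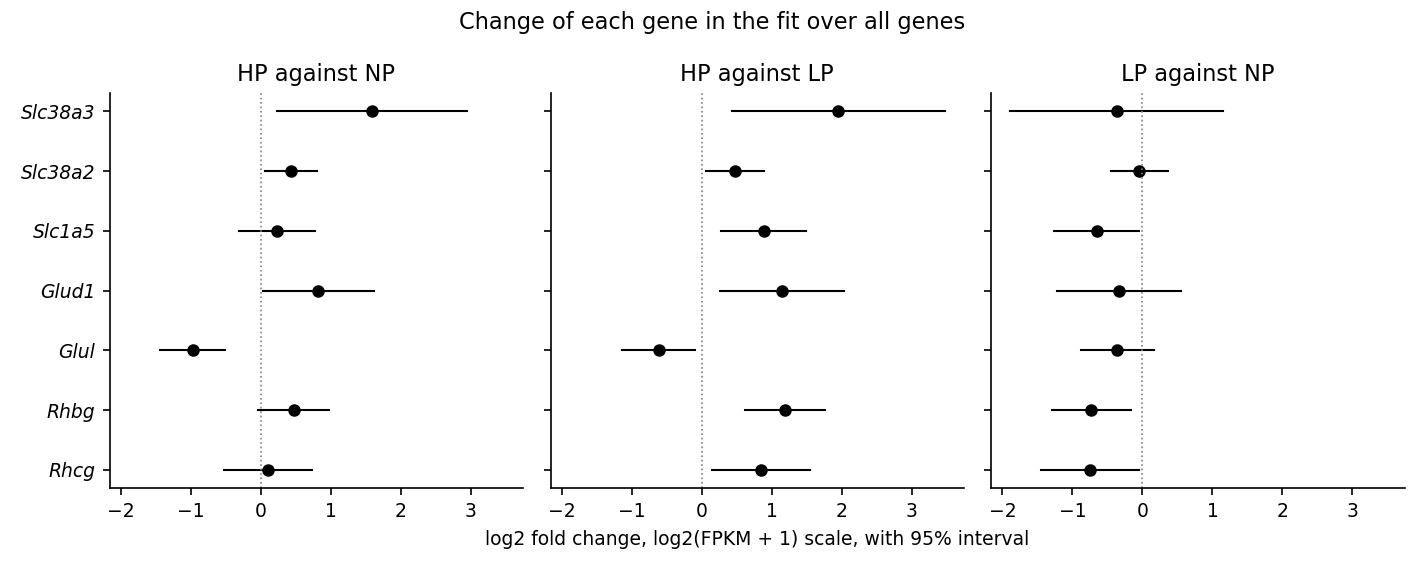
Log2 difference of each gene on the log2(FPKM + 1) scale (point) with its 95% interval (line) from limma over all genes, for HP against NP, HP against LP and LP against NP. In HP against LP every interval leaves out 0 and Glul alone is negative, at -0.61; the intervals are not adjusted for the number of genes.

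HP M, the only M library on HP, was the lowest HP library for all 7 genes, and without it HP lay apart from all 5 other libraries in 6 of the 7, Rhcg being the exception. With 2 HP libraries such separation is commoner: HP lay above in 5 of the 7 (7.95% of all genes) and below in Glul (7.91%). Without NP F2, the only F library on NP, HP also lay above in Slc38a3 (1.89%). The libraries labelled F2 and M are 1 pool each on every diet, and they allow each diet to be compared within a label. Glul was lower on HP than on NP in both, by -1.30 in F2 and -0.95 in M on the log2(FPKM + 1) scale, and lower than on LP by -0.78 in F2 and -0.78 in M. Slc38a3 was higher on HP than on NP in both, by 0.69 and 0.81, and higher than on LP by 2.29 and 1.00. Glud1 was higher on HP than on NP in F2 by 0.60, but differed by -0.06 in M. Rhcg differed in HP against NP by 0.69 in F2 and -0.48 in M. In HP against LP all 7 genes had the same sign in both labels.

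**Figure D5:**
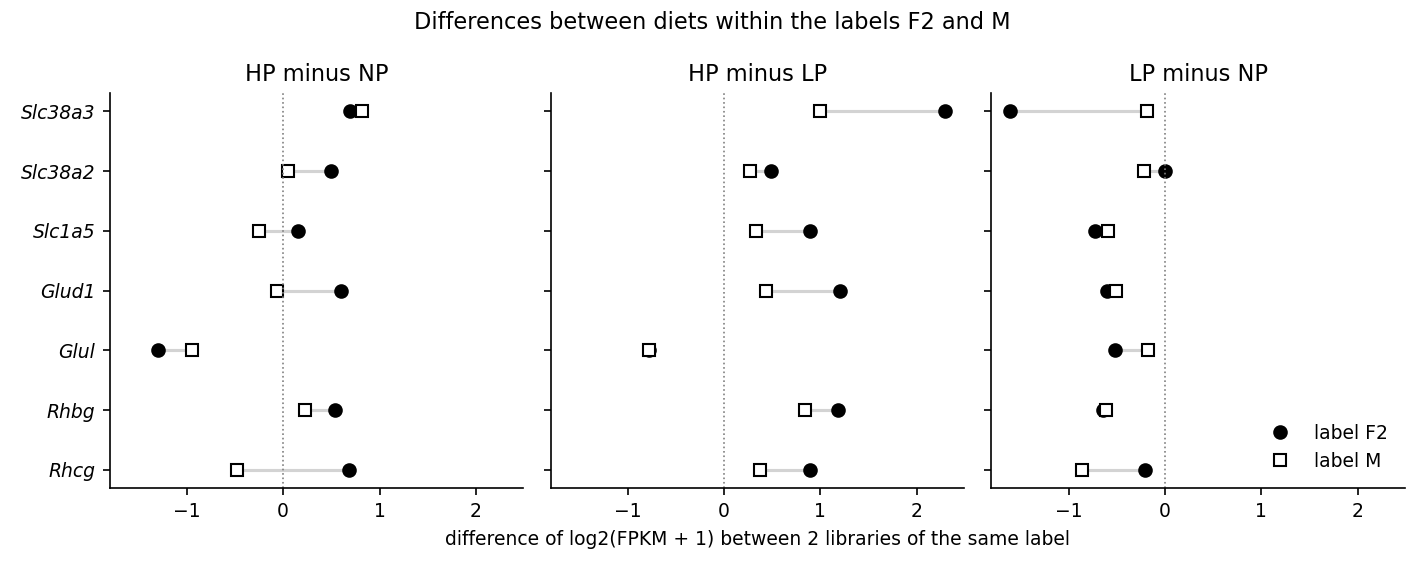
Difference of log2(FPKM + 1) between 2 diets for the library pair labelled F2 (filled circles) and the pair labelled M (open squares), each value from 1 library per diet. Signs match in both labels for all 7 genes in HP minus LP, and differ for Slc1a5, Glud1 and Rhcg in HP minus NP.

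Some of the genes varied together over the 8 libraries, which is given as a description. Glud1 and Slc38a3 correlated at r = 0.94, as did Slc1a5 and Rhbg, and Slc38a2 and Glul at r = -0.71. Among genes with a mean of at least 5 FPKM, those most like Slc38a3 were Slc13a2, Slc25a10 and Ppard (r = 0.95 to 0.96). Slc13a2 carries citrate and dicarboxylates, Slc25a10 is the mitochondrial dicarboxylate carrier and Ppard is a nuclear receptor. Those most like Glud1 were Tmem123, Slc35f5 and Apmap (r = 0.96 to 0.97), and those most like Glul were Aarsd1, Slc5a6, a vitamin carrier, and Bpgm (r = 0.97 to 0.98).
Slc38a2 was most like the integrin Itgb1 (r = 0.98), Slc9a2 and Slc16a14. Slc1a5 was most like Ndst1 (r = 0.99), Tmed7 and Slc7a8. Rhbg was most like Nudt4 (r = 0.98) and Ptger3, one of the thick ascending limb markers. Rhcg was most like Mal2, Gcgr and Cldn8 (r = 0.99 each), the last a tight junction gene of the distal nephron.

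Of 43 other genes of glutamine, glutamate and acid handling, 39 were tested and none was called in any comparison. At an unadjusted limma p under 0.05, HP was higher than NP and LP averaged in 5 (4.08% of all genes) and lower in 2 (6.94%). HP was higher than LP in 7 (5.06%) and lower in 0 (7.32%), and higher than NP in 2 (2.96%) and lower in 4 (5.92%). LP was higher than NP in 1 (4.57%) and lower in 10 (5.82%).

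Glutamate leaves the pathway as carbon for glucose. Pck1, the cytosolic phosphoenolpyruvate carboxykinase of gluconeogenesis, was at 2195, 1706 and 1329 FPKM in HP F1, F2 and M, against 843, 617 and 619 FPKM in NP F2, KO7 and M and 669 and 749 FPKM in LP F2 and M. HP lay above all others, and the difference from NP and LP averaged was 1.29 (SE 0.19, limma adjusted p = 0.0943) on the log2(FPKM + 1) scale. Pck1, like Slc38a3, was picked by the study from these libraries. The study's RT-PCR of kidney tissue found Slc38a3 higher on HP but no difference in Pck1. Its Western blots found more of the PEPCK protein on HP. The alanine aminotransferases, which pass nitrogen between glutamate and alanine, had the other sign: Gpt2 was at 15.7 ± 4.37 FPKM with HP, 23.2 ± 2.72 with NP and 21.3 ± 3.43 with LP (SD, n = 3, 3 and 2). Gpt was at 14.0 ± 2.65 FPKM with HP, 24.3 ± 6.17 with NP and 15.6 ± 0.912 with LP. The differences from NP and LP averaged were -0.50 for Gpt2 (adjusted p = 0.386) and -0.44 for Gpt (adjusted p = 0.417). The mitochondrial glutamate carrier Slc25a22 was at 6.58 ± 2.47 FPKM with HP, 10.7 ± 1.72 with NP and 7.44 ± 1.62 with LP (adjusted p = 0.513). In all, 6 of the 11 tested genes of this role were above 0 in this comparison and 5 below, with a median of 0.02.

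Of the 10 genes of ammonium and acid transport 8 were tested, and 7 of these were above 0 in HP against NP and LP averaged (median 0.25). Slc12a1, the thick ascending limb cotransporter that also carries ammonium, was at 189, 163 and 76.1 FPKM in HP F1, F2 and M, against 78.4, 86.1 and 104 FPKM in NP F2, KO7 and M and 33.8 and 32.2 FPKM in LP F2 and M. It is also one of the thick ascending limb markers, all 7 of which were above 0 in this comparison. HP M was below all NP libraries for Slc12a1, and its difference from NP and LP averaged was 1.28 (SE 0.27, limma adjusted p = 0.188). Aqp8, a channel for water and ammonia, was at 4.82 ± 1.60 FPKM with HP, 0.890 ± 0.385 with NP and 3.51 ± 2.45 with LP (adjusted p = 0.300). The carbonic anhydrase Car2 was at 303 ± 53.8 FPKM with HP, 247 ± 14.4 with NP and 262 ± 26.1 with LP (adjusted p = 0.559).

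Among 14 other carriers of glutamine and glutamate 13 were tested, and 6 were above 0 and 7 below 0 in HP against NP and LP averaged (median -0.08). Slc7a8, a neutral amino acid exchanger, was at 72.4, 45.6 and 35.0 FPKM in HP F1, F2 and M, against 43.0, 41.3 and 37.2 FPKM in NP F2, KO7 and M and 29.4 and 28.1 FPKM in LP F2 and M. As for Slc1a5, HP M was below the 3 NP libraries. The limma difference from NP and LP averaged was 0.50 (adjusted p = 0.427). It was 0.26 for the exchanger subunit Slc3a2 (adjusted p = 0.539), 0.37 for its partner Slc7a5 (adjusted p = 0.587) and -0.37 for Slc3a1, a subunit of the cystine carrier (adjusted p = 0.528).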

How the data were processed

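Expression was measured in 8 libraries of epithelial cells sorted from Pkd1KO kidneys (2 LP, 3 NP and 3 HP). The deposited FPKM values per gene are the authors' output of RSEM 1.3.3 on GRCm39, after Trim Galore 0.6.7; the labels and the paper name different library kits. No column was left without a sample. The table holds no counts and no filter. Identifiers were matched to symbols of GENCODE M21 (52093 of 53700).

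Differences between diets were tested on log2(FPKM + 1) with limma 3.58.1 in R 4.3.3 (trended variance prior). Genes had to reach 1 FPKM in 2 or more libraries. One model with a mean for each diet held all 8 libraries, and Benjamini-Hochberg adjustment ran over every gene tested. The fit was checked on simulated data with independent normal residuals and no sex or label effects. Of 200 2-fold changes it called 89 in HP against NP and 66 in HP against LP. Of 200 4-fold changes it called 192 and 185. The changed genes were drawn at random from all but the lowest genes, each with its own spread. The counts therefore do not give the power for any of the 7 genes. P-values measure the spread between pools. The smallest estimated number of fragments behind a value of the 7 genes was 321 (Rhbg in LP M, a counting error of 5.58%).

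The 7 genes, the lists and the tests were chosen with earlier results of these data known. Other pathway genes are named by the smallest p in HP against NP and LP averaged (up to 4 a role), and up to 3 genes most like each of the 7 by Pearson's r. Deviations from the diet mean correlated at 0.145 to 0.346 over the 6 pairs of libraries that share the label F2 or M, so these labels were used as a block in an alternative fit. Other alternatives were the pseudocount, the filter, 4 other scalings, array weights, the diets compared only, the sex letter of the label and each library left out. Not all genes that these rules pick are reported here.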

Additional observations from a re-analysis of the deposited data

Results flagged for a closer look

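In 4 cases the library pairs labelled F2 and M differed in opposite directions between 2 diets. The F2 difference minus the M difference on the log2(FPKM + 1) scale was 0.41 for Slc1a5, 0.66 for Glud1 and 1.17 for Rhcg in HP against NP, and 0.22 for Slc38a2 in LP against NP. Each value rests on 1 library per diet and label, so whether the labels differ was not tested. Groups of 2 to 3 libraries were too small to be screened for single libraries far from the rest.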

How the results depend on the processing

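Under 11 alternatives and with each of the 8 libraries left out in turn, none of the 7 genes was called except in 2 settings. With the sex letter in the model and NP KO7 left out, 1 was called in HP against NP (Glul, -1.03, adjusted p = 0.0255), 2 in HP against LP (Slc38a3, 1.75, adjusted p = 0.0326, and Rhbg, 1.12, adjusted p = 0.0321) and 2 in HP against NP and LP averaged (Slc38a3, 1.31, adjusted p = 0.0494, and Glul, -0.86, adjusted p = 0.0198). The sex-letter setting counts LP M as M, although LP M held both Xist and Ddx3y. Leaving out each library gave 0 to 1 called in HP against LP and in HP against the mean, the 1 being Rhbg without HP M. Counts over all genes moved most. In HP against NP, 3 genes became 5 (pseudocount 0.1), 1 (no filter), 6 (median-of-ratios), 6 (quantile), 5 (without haemoglobin and mitochondrial genes), 12 (array weights), 8 (label block), 44 (sex letter) and 1 to 38 with a library left out. In HP against LP, 2 became 1, 8, 1, 1, 10, 36, 0, 189 and 1 to 55 in the same order, 9 with the same sum and 8 with these diets only. In LP against NP, 2 became 0 (pseudocount 0.1), 8 (no filter), 1 (median-of-ratios), 1 (quantile), 0 (these diets only), 16 (sex letter) and 1 to 5. Against the mean, 1 became 2 (pseudocount 0.1 or 0.5), 0 (no filter), 3 (same sum), 2 (quantile), 30 (array weights), 5 (label block), 115 (sex letter) and 0 to 69. In the HP comparisons the highest count with a library left out came without HP M. Genes passing the 2-fold rule numbered 1 to 2. Genes with HP apart from all other libraries numbered 2, but 0 with the same sum, 1 without haemoglobin and mitochondrial genes, and 2 to 6 with a library left out. Signs turned for Slc1a5 in HP against NP (-0.048 with the block, -0.043 to 0.51 with a library left out). They also turned for Rhcg in HP against NP (-0.15 to 0.35) and Slc38a2 in LP against NP (0.014 with quantile, -0.13 to 0.086). Slc38a3 in LP against NP turned from -0.37 in the main fit to 0.31 without NP F2, in a range of -0.90 to 0.31. The share of higher calls at an unadjusted p under 0.05 in HP against LP was 40.9% as deposited and 54.7 to 75.3% under the other scalings; in HP against NP it was 33.4% and 26.9 to 51.4%, in LP against NP 44.0% and 17.7 to 45.0%, and in HP against NP and LP averaged 37.0% and 42.2 to 65.1%. The median of all genes moved to -0.10 with the same sum and -0.11 without haemoglobin and mitochondrial genes in LP against NP. The causes were not tested. Counting error was at most 5.58% for the 7 genes, but only 2 to 3 pools stood for each diet.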

Other observations

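Of 7 enzymes that spend glutamine or glutamate on other syntheses, 3 were above 0 and 4 below 0 in HP against NP and LP averaged, with a median of -0.0017 on the log2(FPKM + 1) scale, and none had an unadjusted limma p under 0.05. Ctps, which makes CTP, was at 4.36 ± 0.509 FPKM with HP, 5.44 ± 1.64 with NP and 5.77 ± 1.35 with LP (SD, n = 3, 3 and 2). Gmps, which makes GMP, was at 4.83 ± 0.228 FPKM with HP, 5.04 ± 0.599 with NP and 5.66 ± 0.792 with LP. Cad, which starts pyrimidine synthesis, was at 1.45 ± 0.498, 1.85 ± 0.620 and 1.33 ± 0.467 FPKM on HP, NP and LP. In LP against NP, 1 of the 7 was lower at an unadjusted p under 0.05: Ppat, the first enzyme of purine synthesis, was at 8.27 ± 0.311 FPKM with LP and 12.3 ± 2.79 with NP (limma difference -0.50, adjusted p = 0.450). Asns, which makes asparagine, was at 4.05 ± 1.39 FPKM with LP and 2.55 ± 0.622 with NP (limma difference 0.50, adjusted p = 0.514); Ppat and Asns were named after their values were seen. Aldh18a1, which turns glutamate toward proline, was at 1.11 ± 0.405, 0.960 ± 0.0624 and 0.970 ± 0.453 FPKM with HP, NP and LP.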
